A study of Sus scrofa with 6 samples.

Results

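Kinesin genes code for the motor subunits, and their partner chains, that move along microtubules. Members were the mRNAs whose pig gene symbol is KIF followed by a digit, KIFC1 to KIFC3, KIFAP3 or KLC1 to KLC4. The gene names used here held 45 such symbols, and 37 of them were found among the 14579 mRNAs of the expression table. The other 8 (KIF1A, KIF26A, KIF2B, KIF5A, KIF5C, KIF9, KIFC2 and KLC3) were not analysed here. Any mRNA without a symbol could not be matched by name. The 37 genes were divided by role into 12 mitotic kinesins, 17 transport kinesins and 8 other kinesins. Symbols came from the gene names of a pig reference table, except that of KIF25, which came from the study's list of differentially expressed genes and could therefore enter only because the study had called it.

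RNA of whole lung tissue was measured in 6 untreated female piglets, each a hybrid of a Tibetan pig sire and a Meishan pig dam. The prenatal group was 3 piglets (Prenatal1 to Prenatal3) taken on the day before birth from 3 sows. The neonatal group was 3 piglets (Neonatal1 to Neonatal3) of 3 other sows, taken 2 days after birth. Each piglet gave 1 library, so the p-values measure the spread between piglets, and birth, age and sow cannot be told apart in this design.

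Kinesins use ATP to walk along microtubules, most of them toward the plus end, and some members instead shorten microtubule ends. In a dividing cell a set of them builds the bipolar spindle, moves chromosomes, bundles the central spindle and helps to separate the daughter cells. In cells that are not dividing, other members carry vesicles, mitochondria, mRNA and ciliary components outward from the cell centre. Mitotic kinesins are made mainly from late S phase to mitosis, whereas transport kinesins are made through the whole cell cycle.

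Levels are FPKM, fragments mapped to a transcript scaled by its length and by the library's mapped total, which allows levels of different genes to be set side by side. Differences are the neonatal minus the prenatal mean of log2(FPKM + 1), tested with limma across all 14579 mRNAs. A gene was called at a Benjamini-Hochberg adjusted p of 0.05 or less. By this test 6.87% of all mRNAs were called, 5.41% as higher in the neonatal group and 1.45% as lower. The 3 values of a group lay entirely above those of the other for 30.5% of all mRNAs, 20.9% with the neonatal group above and 9.64% with it below. The median difference of all mRNAs was 0.13, and after scaling by median-of-ratios factors it was -0.0090. The study gives mapped reads per library but the table holds no counts per gene, so no counting error could be attached to a single FPKM. In whole tissue, fewer cells of a type and less RNA per cell cannot be told apart.

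The mitotic kinesins were higher after birth. Of the 12 members, 10 were called higher in the neonatal group, against 5.41% of all mRNAs, and 0 were called lower. In 12 of 12 the lowest neonatal value lay above the highest prenatal value, against 20.9% of all mRNAs. Their median difference was 1.91 on the log2(FPKM + 1) scale, with a range from 0.60 to 2.71, beside 0.13 for all mRNAs. As a ratio of group mean FPKM, the median member was 7.97-fold higher in the neonatal group, and 10 of the 12 were above 5-fold. Before birth these genes were near the lower edge of the table: 10 had a prenatal mean under 1 FPKM, and 11 were among the 12 lowest prenatal means of the 37 kinesins. After birth all 12 were above 1 FPKM in every neonatal sample. Because 1 was added before the logarithm, the log2 differences understate the change of genes this low.

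**Figure D1:**
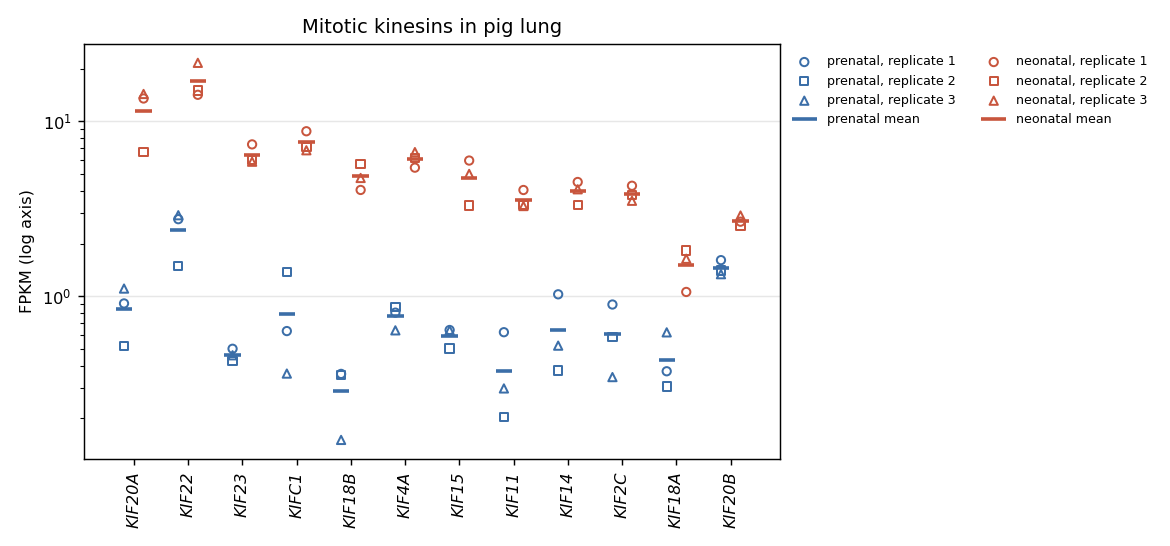
FPKM (log axis) of the 12 mitotic kinesins in each of the 6 lungs, with 1 point per piglet and a bar at each group mean. The neonatal points lie above the prenatal points for every gene, with the widest gaps at KIF23 and KIF18B and the narrowest at KIF20B and KIF18A.

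The motors that set up the spindle poles and keep them apart were KIF11, KIF15 and KIFC1. KIF11 (ENSSSCG00000010471), the kinesin-5 motor that slides antiparallel microtubules to push the poles apart, had 0.622, 0.204 and 0.297 FPKM in Prenatal1 to Prenatal3 and 4.05, 3.31 and 3.28 FPKM in Neonatal1 to Neonatal3. It rose 9.47-fold (log2 difference 1.73, SE 0.21, limma adjusted p = 0.00642). KIF15 (ENSSSCG00000011309), a kinesin-12 that acts beside KIF11 to hold the spindle bipolar, had 0.640, 0.501 and 0.638 FPKM before birth and 5.96, 3.30 and 5.0 FPKM after it. It rose 8.01-fold (log2 difference 1.83, SE 0.23, limma adjusted p = 0.00738). Both motors thus had all their neonatal values several times above their highest prenatal value. KIFC1 (ENSSSCG00000001510), a minus-end kinesin-14 that pulls poles inward and clusters centrosomes, was relative to its mean the most uneven of the 12 before birth, with 0.632, 1.38 and 0.361 FPKM. Its neonatal values were 8.77, 7.12 and 6.82 FPKM, a 9.59-fold rise (log2 difference 2.29, SE 0.25, limma adjusted p = 0.00494). The outward-pushing and the inward-pulling motors were therefore both called higher.

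A second group acts on chromosomes and on the plus ends of microtubules. KIF22 (ENSSSCG00000029509), a chromosome-arm motor of the kinesin-10 family, was the mitotic kinesin of highest level in both groups, with 2.76, 1.48 and 2.90 FPKM before birth and 14.2, 15.0 and 21.6 FPKM after it (log2 difference 2.41, SE 0.26, limma adjusted p = 0.00435). Among the 37 kinesins it stood at place 22 by prenatal mean and at place 5 by neonatal mean. KIF4A (ENSSSCG00000012377), the chromokinesin that shapes chromosomes and sets the length of the central spindle, varied little within either group. Its values were 0.805, 0.863 and 0.638 FPKM before birth and 5.43, 6.18 and 6.66 FPKM after it (log2 difference 2.00, SE 0.19, limma adjusted p = 0.00298). KIF2C (ENSSSCG00000003931), a kinesin-13 that takes apart microtubule ends at centromeres, had 0.896, 0.587 and 0.345 FPKM before birth and 4.28, 3.79 and 3.51 FPKM after it (log2 difference 1.61, SE 0.21, limma adjusted p = 0.00790).

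The pair of kinesin-8 motors, which damp microtubule growth at plus ends, differed in size of change. KIF18B (ENSSSCG00000017342) had 0.359, 0.354 and 0.151 FPKM before birth and 4.05, 5.71 and 4.74 FPKM after it, at 16.8-fold the largest ratio of means among the 37 kinesins (log2 difference 2.17, SE 0.21, limma adjusted p = 0.00313). It was above 0.5 FPKM, the study's filter for an expressed mRNA, in neonatal samples only, so its place in the table required a high neonatal value, and without it 9 of 11 mitotic kinesins were called. KIF18A (ENSSSCG00000013332), which aligns chromosomes at the metaphase plate, had 0.372, 0.304 and 0.621 FPKM before birth and 1.06, 1.82 and 1.64 FPKM after it. Its groups did not overlap, but the difference of 0.80 (95% interval 0.29 to 1.31) missed the threshold, with a limma adjusted p of 0.0771.

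The motors of the central spindle and of cytokinesis were KIF23, KIF20A, KIF20B and KIF14. KIF23 (ENSSSCG00000004969), which forms the centralspindlin complex with RACGAP1, had prenatal values that were the tightest relative to their mean, 0.50, 0.425 and 0.459 FPKM, and neonatal values of 7.37, 5.99 and 5.87 FPKM. Its lowest neonatal value was 11.7 times its highest prenatal value, the widest gap of the 12 (log2 difference 2.34, SE 0.19, limma adjusted p = 0.00176). KIF20A (ENSSSCG00000014326), which carries the chromosomal passenger complex to the midzone, had 0.909, 0.520 and 1.11 FPKM before birth and 13.5, 6.65 and 14.3 FPKM after it. It had the largest log2 difference of all kinesins, 2.71 (SE 0.31, limma adjusted p = 0.00523), although Neonatal2 was well under the other neonatal samples. KIF14 (ENSSSCG00000010912), which works with citron kinase in abscission, had 1.02, 0.376 and 0.521 FPKM before birth and 4.49, 3.33 and 4.08 FPKM after it (log2 difference 1.61, SE 0.23, limma adjusted p = 0.00960). Of the called mitotic kinesins it had the narrowest gap, its lowest neonatal value being 3.25 times its highest prenatal value. KIF20B (ENSSSCG00000010457), a relative of KIF20A that also acts in abscission, had 1.61, 1.40 and 1.34 FPKM before birth and 2.67, 2.53 and 2.89 FPKM after it. Its 1.86-fold ratio was the smallest of the mitotic kinesins, and its difference of 0.60 (95% interval 0.17 to 1.02) was not called, with a limma adjusted p of 0.0992.

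Within groups, no single piglet set the pattern. Prenatal1 had the highest prenatal value for 7 of the 12 mitotic kinesins and Prenatal2 the lowest for 7. Among neonatal samples the highest value came from Neonatal1 for 6 genes, from Neonatal2 for 2 and from Neonatal3 for 4, and each was lowest for 4. Leaving out any 1 of the 6 samples kept the neonatal mean above the prenatal mean for all 12 genes, and left between 7 and 10 of them called. The low count of 7 came without Prenatal2, where KIF14 (limma adjusted p = 0.0606), KIF15 (limma adjusted p = 0.0536) and KIF2C (limma adjusted p = 0.0536) lost their calls.

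Summed FPKM gave the weight of each class in the kinesin pool of a lung. The 12 mitotic kinesins summed to 11.1, 8.39 and 9.37 FPKM in Prenatal1 to Prenatal3 and to 75.8, 64.7 and 80.4 FPKM in Neonatal1 to Neonatal3. The 17 transport kinesins summed to 149.8, 133.9 and 133.0 FPKM before birth and to 174.7, 196.3 and 170.6 FPKM after it. For both classes the neonatal sums lay above the prenatal sums, but by a much wider margin for the mitotic class. The summed FPKM of all mRNAs was higher after birth as well. It ran from 339491 to 471220 in prenatal and from 491548 to 777982 in neonatal samples. A higher class sum is therefore not by itself a higher share of all FPKM. As a share of all kinesin FPKM, the mitotic kinesins made up 5.22% ± 0.483 (SD, n = 3) in prenatal lungs and 25.4% ± 3.58 (SD, n = 3) in neonatal lungs. The transport kinesins still held the larger share after birth, 62.1% ± 2.61 (SD, n = 3), beside 75.5% ± 0.568 (SD, n = 3) before it. The 8 other kinesins summed to between 33.9 and 36.5 FPKM in prenatal and between 32.1 and 40.6 FPKM in neonatal samples, and these ranges overlapped.

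**Figure D2:**
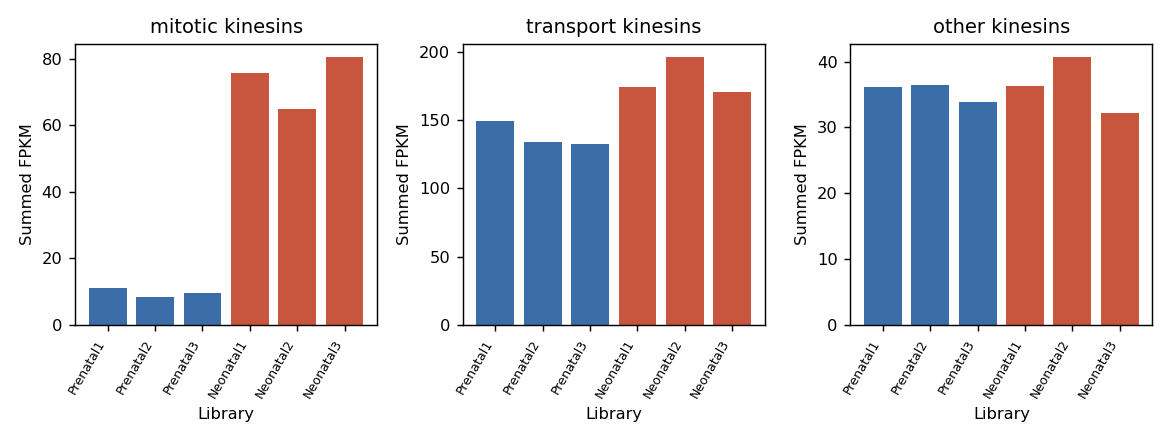
Summed FPKM of the 12 mitotic, 17 transport and 8 other kinesins in each of the 6 samples. The mitotic sum is at most 11.1 FPKM in prenatal samples and at least 64.7 FPKM in neonatal samples, while the sum of the other kinesins overlaps between the groups.

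None of the transport kinesins was called: 0 of 17 passed the test in either direction, against 6.87% of all mRNAs, and 4 of 17 had an unadjusted limma p under 0.05, against 24.2% of all mRNAs. Their median difference was 0.089, under the 0.13 of all mRNAs, and it was -0.047 after median-of-ratios scaling and -0.030 after quantile normalization. The neonatal mean was the higher one for 9 and the lower one for 8. The groups did not overlap for 7, all with the neonatal group above, against 20.9% of all mRNAs. The ratio of means was between 0.5-fold and 2-fold for 16 of the 17. The 95% intervals of the 17 differences ran from -1.35 to 1.33. None reached 1.61, the smallest difference among the called mitotic kinesins, but the intervals of those kinesins reached down to 1.08 (KIF14). A call that was missed does not show that a transport kinesin had the same level in both groups.

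Kinesin-1, the main anterograde cargo motor, is built of heavy chains such as KIF5B and light chains that bind cargo. KIF5B (ENSSSCG00000011027), the heavy chain of most tissues, had 20.0, 18.9 and 20.1 FPKM before birth and 32.4, 33.3 and 27.4 FPKM after it. All 3 neonatal values exceeded the prenatal ones by at least 1.37-fold, but the difference of 0.63 (SE 0.17) was not called (limma adjusted p = 0.0680). The light chain KLC1 (ENSSSCG00000002547) was the kinesin of highest prenatal mean, with 30.8, 22.5 and 22.1 FPKM before birth and 32.8, 36.9 and 31.4 FPKM after it (log2 difference 0.42, SE 0.19, limma adjusted p = 0.234). KLC4 (ENSSSCG00000001659) overlapped between the groups, with 14.7, 15.7 and 17.5 FPKM before birth and 12.5, 17.5 and 11.3 FPKM after it (log2 difference -0.22, SE 0.21, limma adjusted p = 0.551). KLC2, a further light chain, also overlapped, at means of 3.24 ± 0.288 and 2.87 ± 0.707 FPKM (SD, n = 3 each, prenatal then neonatal).

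Kinesin-2, which carries intraflagellar cargo in cilia as well as vesicles, is a trimer of KIF3A with KIF3B or KIF3C and the adaptor KIFAP3. KIF3A had means of 3.14 ± 0.766 FPKM before birth and 2.86 ± 0.365 FPKM after it, and KIFAP3 had 5.58 ± 0.803 and 5.03 ± 0.238 FPKM (SD, n = 3 each). KIF3B had 3.64 ± 0.880 and 4.66 ± 0.555 FPKM (SD, n = 3 each). For these 3 the groups overlapped and limma adjusted p lay above 0.05. KIF3C (ENSSSCG00000008574) did not overlap, with 2.47, 2.71 and 2.30 FPKM before birth and 3.24, 3.18 and 2.91 FPKM after it, yet its difference was 0.24 (SE 0.18, limma adjusted p = 0.450). KIF17, a homodimeric kinesin-2 of cilia and dendrites, had the lowest ratio of the transport class, with means of 2.49 ± 0.825 and 1.23 ± 0.655 FPKM (SD, n = 3 each). Its groups overlapped and its difference of -0.66 (SE 0.30) had a limma adjusted p of 0.230.

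The kinesin-3 motors carry vesicles, endosomes and mitochondria. KIF1C (ENSSSCG00000017900), a fast vesicle motor, was the transport kinesin nearest to a call, with 26.5, 21.6 and 22.4 FPKM before birth and 35.9, 40.4 and 42.8 FPKM after it. Its difference of 0.73 (95% interval 0.33 to 1.14) had a limma adjusted p of 0.0506, and this was 0.0498 with a pseudocount of 0.5, 0.0481 with one of 0.1 and 0.0473 after a stricter filter on low values. Over the other alternatives it was not called, with limma adjusted p up to 0.170, and after quantile normalization its difference was 0.46. KIF1C was the kinesin of highest neonatal mean. KIF13A (ENSSSCG00000020858), which moves recycling endosomes, had 3.06, 3.22 and 3.08 FPKM before birth and 3.32, 3.30 and 3.54 FPKM after it. The groups did not overlap, with a difference of 0.089 (SE 0.17, limma adjusted p = 0.779), a difference that was -0.047 after median-of-ratios scaling. KIF1B, KIF13B and KIF16B overlapped between the groups, with prenatal means of 5.59 ± 0.454, 5.67 ± 1.20 and 5.24 ± 0.224 FPKM and neonatal means of 4.68 ± 1.27, 5.10 ± 0.771 and 5.88 ± 0.595 FPKM (SD, n = 3 each).

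The remaining transport members were KIFC3 and a pair of kinesin-4 motors. KIFC3 (ENSSSCG00000002812), a minus-end motor of epithelial junctions and apical vesicles, had 9.86, 8.26 and 9.47 FPKM before birth and 12.2, 22.1 and 16.5 FPKM after it. It had the largest difference of the class, 0.78 (SE 0.23, limma adjusted p = 0.0961), and without Neonatal1, its lowest neonatal sample, the limma adjusted p was 0.0485. With any other single sample left out the limma adjusted p was up to 0.277 and KIFC3 was not called. KIF21B (ENSSSCG00000021706), which slows microtubule growth, had 1.87, 1.64 and 2.00 FPKM before birth and 4.05, 4.49 and 2.12 FPKM after it (log2 difference 0.64, SE 0.26, limma adjusted p = 0.182). Its Neonatal3 value lay just above the prenatal range, apart from the other neonatal samples. KIF21A, its close relative, overlapped at means of 3.42 ± 1.06 and 3.03 ± 0.359 FPKM (SD, n = 3 each).

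**Figure D3:**
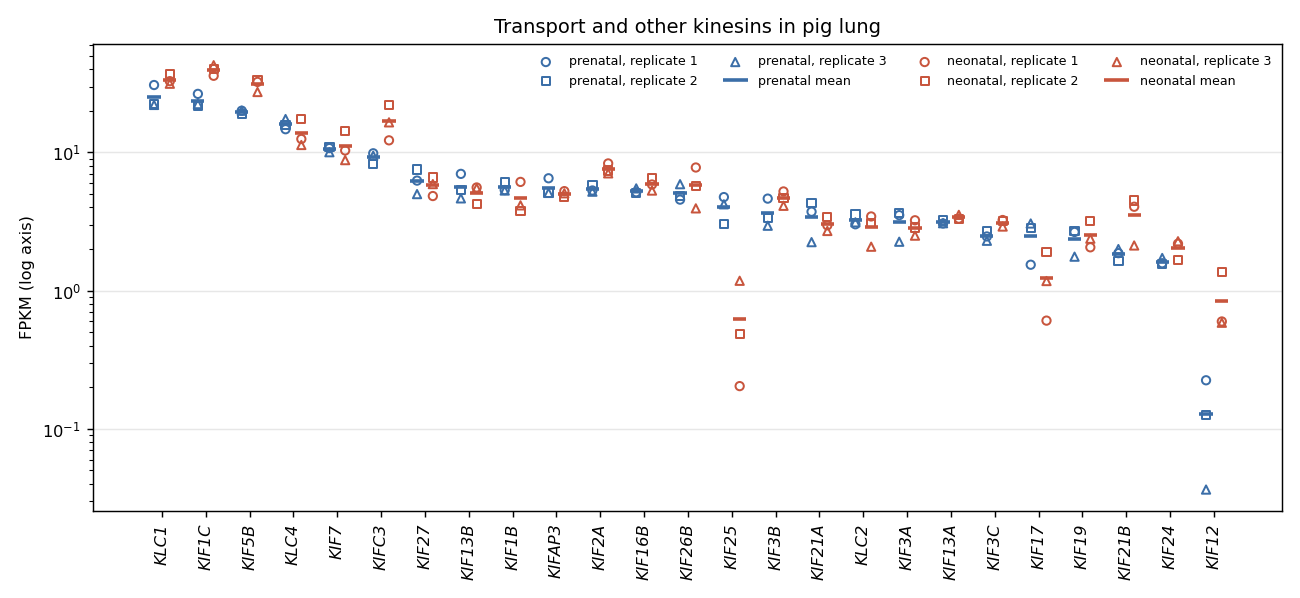
FPKM (log axis) of the 17 transport and 8 other kinesins in each of the 6 samples, with 1 point per piglet and a bar at each group mean. The points of the groups are mixed or adjacent for most genes, and KIF25 is the member whose neonatal points lie far under its prenatal points. KIF12 lies the other way, its lowest neonatal point being 2.61 times its highest prenatal point.

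Of the 8 other kinesins, 1 was called, KIF25, and it was called lower, against 1.45% of all mRNAs. KIF25 (ENSSSCG00000004016), a kinesin-14 described as keeping centrosomes from separating before mitosis, had 4.75, 3.05 and 4.22 FPKM before birth and 0.204, 0.484 and 1.18 FPKM after it. Its prenatal mean was 4.01 ± 0.872 and its neonatal mean 0.622 ± 0.502 FPKM (SD, n = 3 each), and its log2 difference was -1.65 (SE 0.28, limma adjusted p = 0.0174). The call was lost when Prenatal1, Prenatal2, Prenatal3 or Neonatal2 was left out, with limma adjusted p between 0.0643 and 0.0801, while the difference stayed between -1.89 and -1.46. Its symbol rests on the study's own list of changed genes, so its low neonatal level is not independent of how it became a member.

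KIF2A (ENSSSCG00000030186), a kinesin-13 that trims microtubules at spindle poles and in neurites, had 5.31, 5.79 and 5.20 FPKM before birth and 8.33, 7.40 and 7.06 FPKM after it. The groups did not overlap, but the difference of 0.42 (SE 0.17) was not called (limma adjusted p = 0.185). KIF12 (ENSSSCG00000005486), known from kidney and bile duct epithelium, had 0.225, 0.125 and 0.0364 FPKM before birth and 0.598, 1.36 and 0.586 FPKM after it (log2 difference 0.69, SE 0.24, limma adjusted p = 0.134). Its ratio of means was 6.58-fold, and like KIF18B it entered the table through its neonatal values alone. KIF7, the kinesin-4 that organizes the ciliary tip for Hedgehog signalling, overlapped at 10.6 ± 0.455 and 11.1 ± 2.81 FPKM (SD, n = 3 each). Its relative KIF27 overlapped at 6.26 ± 1.27 and 5.77 ± 0.876 FPKM, and KIF19, which limits the length of cilia, at 2.37 ± 0.529 and 2.54 ± 0.577 FPKM (SD, n = 3 each). KIF24, which restrains cilium assembly, had 1.62 ± 0.0892 and 2.04 ± 0.328 FPKM, and KIF26B, a kinesin-11 without motor activity, had 5.10 ± 0.704 and 5.82 ± 1.92 FPKM (SD, n = 3 each). These 5 overlapped between the groups, and their differences ran from -0.095 for KIF27 to 0.21 for KIF24.

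Set side by side, the 10 called mitotic kinesins had differences of 1.61 or more. The 25 kinesins outside the mitotic list had differences of 0.78 or less. Their 95% intervals did meet, since that of KIF14 reached down to 1.08 and that of KIFC3 up to 1.33. By ratio of means the 2 sets were not apart. KIF12, outside the mitotic list, was 6.58-fold higher, above the called KIF2C at 6.34-fold and KIF14 at 6.20-fold. Its prenatal mean was 0.129 FPKM. Over the alternatives with all 6 samples its difference ran from 0.61 to 2.04, and it was called in none. On the log2(FPKM + 1) scale the lower-lying mitotic members KIF18A and KIF20B were at 0.80 and 0.60. KIFC3, KIF1C, KIF21B and KIF5B were close to them, at 0.78, 0.73, 0.64 and 0.63. The ratio of means was 3.48-fold for KIF18A and 1.86-fold for KIF20B. For those transport members, in the same order, it was 1.84, 1.69, 1.93 and 1.58-fold, so KIF18A lay above them by ratio. Starting levels also differed, since mitotic prenatal means ran from 0.288 to 2.38 FPKM and those of KLC1, KIF1C and KIF5B were 25.1 ± 4.88, 23.5 ± 2.66 and 19.7 ± 0.685 FPKM (SD, n = 3 each). After birth the mitotic means ran from 1.51 to 16.9 FPKM, and KIF1C, KLC1 and KIF5B still held the top places with 39.7 ± 3.51, 33.7 ± 2.82 and 31.0 ± 3.20 FPKM (SD, n = 3 each).

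**Figure D4:**
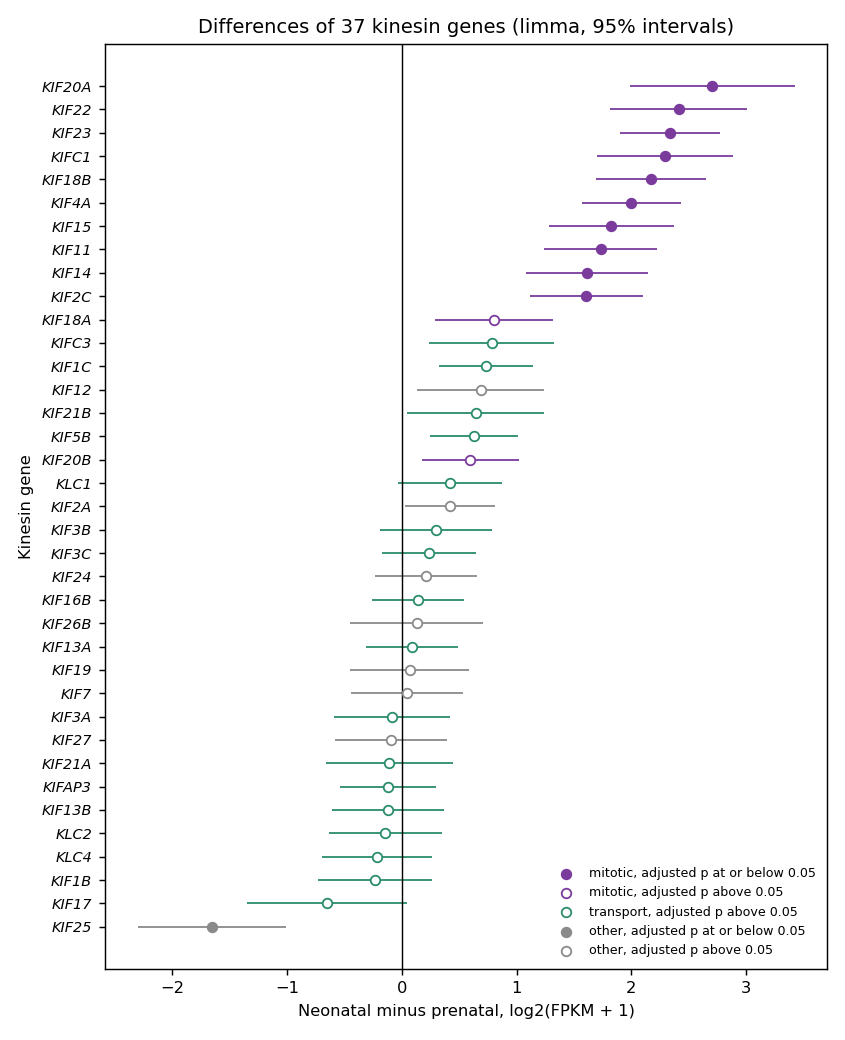
Neonatal minus prenatal difference of log2(FPKM + 1) for each of the 37 kinesins with its 95% interval, by class, filled where limma adjusted p is 0.05 or less. The 10 filled mitotic points lie from 1.61 to 2.71, the transport points lie between -0.66 and 0.78, and the filled point at -1.65 is KIF25.

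Because FPKM differ in composition between samples, a mitotic member was also divided by a relative within the same sample, which cancels any scaling of that sample. This was done for 6 pairs of the same subfamily, chosen with the values known, so the ratios are a description with no test. In 2 pairs the relative is a transport kinesin (KIF13A and KIFC3), in 2 it is one of the other kinesins (KIF2A and KIF7) and in 2 it is itself mitotic (KIF20B and KIF18A). Within kinesin-13, KIF2C over KIF2A was 0.169, 0.101 and 0.0662 before birth and 0.514, 0.513 and 0.497 after it. KIF2C was thus well under KIF2A in every sample, but by less after birth. Within kinesin-6, KIF20A over KIF20B was 0.566, 0.371 and 0.828 before birth and 5.06, 2.62 and 4.95 after it, so the order of the pair was turned in all samples. Within kinesin-8, KIF18B over KIF18A was 0.966, 1.16 and 0.243 before birth and 3.83, 3.13 and 2.90 after it, a pair in which KIF18B is in the table through its neonatal values alone. Within kinesin-3, KIF14 over KIF13A was 0.335, 0.117 and 0.169 before birth and 1.35, 1.01 and 1.15 after it, passing from below to above its relative. Within kinesin-4, KIF4A over KIF7 went from between 0.0635 and 0.0793 to between 0.433 and 0.757, and within kinesin-14, KIFC1 over KIFC3 went from between 0.0381 and 0.167 to between 0.322 and 0.717. The ratio was higher in the neonatal group by 4.87-fold to 7.70-fold across the 6 pairs, with no overlap between groups in any pair.

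Most genes that work beside the mitotic kinesins on the spindle were also called higher. Of 28 named spindle and midzone partners, 22 were in the table, and 19 of these were called higher and 0 lower, against 5.41% and 1.45% of all mRNAs, with a median difference of 1.86 and a range from 0.0089 to 2.85. BUB1 and ASPM were above 0.5 FPKM in neonatal samples only, and without them 17 of 20 were called higher. The count of 19 was 11 without Prenatal2 and 12 without Neonatal3. A gene of this or a later list could also take its symbol from the study's list of differentially expressed genes. Such a gene could enter only because the study had called it, and how many did so was not counted. CKAP2, a spindle-binding protein, had the largest rise, from 1.59, 0.869 and 0.814 FPKM to 14.9, 12.8 and 13.9 FPKM (log2 difference 2.85, limma adjusted p = 0.00142). TPX2, which activates Aurora A and binds KIF11 and KIF15, had 1.47 ± 0.294 FPKM in prenatal and 13 ± 0.892 FPKM in neonatal lungs (SD, n = 3 each), a rise of 2.51 on the log2(FPKM + 1) scale (limma adjusted p = 0.00142). BUB1, a spindle checkpoint kinase, rose by 2.33 on the log2(FPKM + 1) scale and CENPF, a kinetochore protein, by 2.27. RACGAP1, the partner of KIF23 in centralspindlin, had 0.871, 1.26 and 1.88 FPKM before birth and 8.66, 8.51 and 13.4 FPKM after it (log2 difference 2.25, limma adjusted p = 0.00523). CENPE, a kinesin-7 of kinetochores whose symbol lies outside the naming rule, had 0.596, 0.273 and 0.453 FPKM before birth and 4.23, 3.31 and 3.46 FPKM after it (log2 difference 1.70, limma adjusted p = 0.00583). The 3 partners not called were the microtubule polymerase CKAP5 (difference 0.67, limma adjusted p = 0.103), the abscission protein CEP55 (0.57, limma adjusted p = 0.191) and NUMA1. NUMA1, which also has a role in the interphase nucleus, had 49.0 ± 5.17 and 49.8 ± 9.98 FPKM (SD, n = 3 each), a difference of 0.0089 that turned to -0.17 after median-of-ratios scaling.

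Genes that work beside the transport kinesins gave 1 call in all. Of 28 named cargo adaptors and motor regulators, 19 were in the table, and 1 was called higher and 0 lower, against 5.41% and 1.45% of all mRNAs, with a median difference of 0.092. The called gene was PLEKHM2, which links lysosomes to kinesin-1, with 17.9 ± 0.483 FPKM before birth and 30.6 ± 1.35 FPKM after it (SD, n = 3 each, log2 difference 0.74, limma adjusted p = 0.0341). Its call was lost after median-of-ratios scaling (limma adjusted p = 0.0513), after quantile normalization (0.0773), with a replicate block (0.142) and without any 1 of the samples other than Neonatal1 (limma adjusted p between 0.0803 and 0.120). For intraflagellar transport, the ciliary cargo of kinesin-2, 24 genes were named and 20 gene entries were in the table, with TTC21B entered as 2. Of these 20, 0 were called by limma in either direction, against 6.87% of all mRNAs. Their median difference was -0.33, with 14 lower and 6 higher neonatal means, and the groups did not overlap for 3 (IFT140, WDR19 and WDR35), all with the neonatal group below, against 9.64% of all mRNAs.

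**Figure D5:**
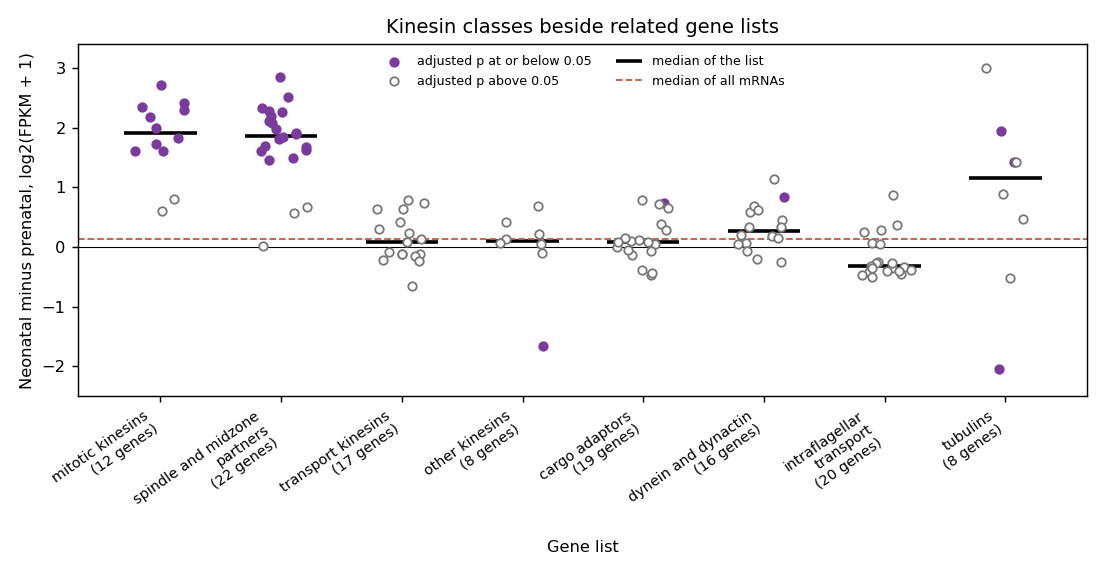
Neonatal minus prenatal difference of log2(FPKM + 1) for each gene of the kinesin classes and of the related gene lists, filled where limma adjusted p is 0.05 or less, with the median of each list as a bar and that of all mRNAs (0.13) as a dashed line. The medians of the mitotic kinesins (1.91) and of the spindle and midzone partners (1.86) lie far above those of the transport kinesins (0.089) and cargo adaptors (0.092).

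Marker lists of the cell types that lung tissue can hold were read in the same samples, since a change in cell make-up could move with these genes. No marker in the table was listed at 0 in all 6 samples, and lung epithelium was plainly present, with summed alveolar type 2 markers (5 of 6 in the table) between 4534 and 5093 FPKM in prenatal and between 6045 and 11129 FPKM in neonatal samples. Of these lists, 1 gene was called, against 6.87% of all mRNAs, namely ACTA2, the smooth muscle actin among the mesenchymal markers (3 of 6 in the table). It had 116 ± 29.3 FPKM before birth and 383 ± 50.2 FPKM after it (SD, n = 3 each, log2 difference 1.74, limma adjusted p = 0.0138). That call was lost without Prenatal1, Prenatal2, Neonatal2 or Neonatal3, and with a replicate block (limma adjusted p = 0.0552). Summed mesenchymal markers ran from 674 to 847 FPKM and from 1166 to 1440 FPKM (prenatal then neonatal, here and below). Summed macrophage markers (5 of 6) ran from 114 to 339 FPKM and from 263 to 662 FPKM, with all 5 neonatal means higher and a median difference of 1.08, and lymphocyte markers (4 of 6) from 11.6 to 13.7 FPKM and from 15.5 to 31.3 FPKM. Endothelial markers (5 of 6) ran from 439 to 558 FPKM and from 618 to 846 FPKM, with CLDN5 at 229 and 537 FPKM as group means but 3 of 5 neonatal means lower and a median difference of -0.40, and alveolar type 1 markers (4 of 6) from 837 to 1250.3 FPKM and from 721 to 1340.3 FPKM. Erythroid markers (7 of 10) ran from 1234 to 2688 FPKM and from 903 to 1470.1 FPKM. Ciliated cell markers (5 of 10), the background for the ciliary kinesins, ran from 56.9 to 107 FPKM and from 58.3 to 67.9 FPKM, with all 5 neonatal means lower, and neural and neuroendocrine markers (4 of 10) from 2.1 to 2.97 FPKM and from 2.29 to 3.77 FPKM. The mesenchymal, lymphocyte, alveolar type 2 and endothelial sums were higher after birth without overlap, although the endothelial markers were divided in direction. The macrophage list had the largest median difference of the marker lists. The part of these cell types in the result was not tested.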

How the data were processed

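The authors sequenced rRNA-depleted (Ribo-Zero), strand-specific libraries, 1 per piglet, and mapped reads to Sscrofa10.2 with TopHat2 (2.1.0). The deposited values are FPKM, which the authors computed with Cufflinks (2.2.1), keeping mRNAs above 0.5 in at least 1 sample. The table was matched to the 6 samples by column name, and 0 value columns were left unmatched. Of 14579 mRNAs, 9478 took a symbol from a reference table and 362 more from the study's list of differentially expressed genes, whose first part only was held, so its values were not used. The lncRNA table was not used here.

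Values were analysed as log2(FPKM + 1) with limma (3.58.1, R 4.3.3) with a variance trend over all 14579 mRNAs, with Benjamini-Hochberg adjustment. The method was tested on simulated data. The table holds no counts per gene, so the only error is the spread of 3 piglets per group. Members, roles and gene lists were chosen with earlier results of these data known. Values were given in every sample for all mitotic kinesins, for other members that were called or whose groups did not overlap, and for the 5 of highest mean outside the mitotic list. From related lists, called genes were named, at most the 5 of largest rise and of largest fall, with further genes of roles tied to the kinesins. SKAP1, an immune adaptor, stood on the cargo adaptor list by mistake and was kept. Alternatives were 2 other pseudocounts (0.5 and 0.1), quantile normalization, scaling by median-of-ratios factors, no variance trend, a stricter filter (3 or more samples above 1 FPKM), a replicate block and leaving out each sample.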

Additional observations from a re-analysis of the deposited data

How the results depend on the processing

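The 12 mitotic kinesins kept a higher neonatal mean in each of 13 alternative fits (156 of 156 gene values). Under each of the alternatives that kept all 6 samples, 10 were called. Their median difference was 2.30 and 2.82 with pseudocounts of 0.5 and 0.1, 1.80 after median-of-ratios scaling and 1.81 after quantile normalization. The transport median turned to -0.047 and -0.030 under these last 2 scalings. Leaving out 1 sample gave mitotic medians from 1.86 to 2.01, transport medians from 0.064 to 0.107, 7 to 10 mitotic calls, 0 to 1 transport calls (KIFC3) and 0 to 1 calls of other kinesins as lower (KIF25). It gave from 163 to 785 higher and from 33 to 159 lower mRNA calls, with the fewest calls in all without Prenatal2 (196). Transport kinesins called higher numbered 1 (KIF1C) with pseudocounts of 0.5 and 0.1 and with the stricter filter, which dropped KIF12. Counting all 25 members outside the mitotic list as transport gave 1 called lower (KIF25). Of all calls 78.8% were higher, against 66.0% of 985 with median-of-ratios factors (335 lower) and 57.9% of 1155 with quantile normalization (486 lower).

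Small differences changed sign. After median-of-ratios scaling and quantile normalization these were KIF16B (-0.011 and -0.00055), KIF13A (-0.047 and -0.030), KIF19 (-0.057 and -0.056), KIF7 (-0.12 and -0.14) and NUMA1 (-0.17 and -0.32), and KIF26B after the former (-0.018). With 1 sample left out, the range ran from -0.25 to 0.0056 for KIF3A, -0.32 to 0.037 for KIF21A, -0.23 to 0.018 for KIF13B, -0.25 to 0.011 for KLC2, -0.074 to 0.34 for KIF26B, -0.068 to 0.17 for KIF19, -0.13 to 0.19 for KIF7 and -0.23 to 0.029 for KIF27. For NUMA1 it ran from -0.14 to 0.13, with -0.074 without Prenatal2. The cause was not tested.

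The labels number the piglets of each group, but same-numbered piglets came from different sows. The correlations of their deviations were -0.041, -0.0043 and 0.00047, and those of different-numbered pairs ran from -0.049 to 0.054. Whether same-numbered piglets were processed together was not tested. With the replicate number as a block, 336 mRNAs were called higher and 65 lower, and the mitotic count was 10. FPKM carry no counts per gene, so counting error could not be assessed, and with 3 piglets per group a missed call does not show equal levels.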

Other observations

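Tubulins, the subunits of the tracks on which kinesins run, changed unevenly. Of 17 named tubulin genes 8 were in the table, and 2 were called higher and 1 lower, against 5.41% and 1.45% of all mRNAs, with a median difference of 1.16. TUBB, a major beta-tubulin, had 136, 98.6 and 142 FPKM before birth and 406, 464 and 594 FPKM after it (log2 difference 1.95, SE 0.27, limma adjusted p = 0.00918). TUBB1, the beta-tubulin of platelets and megakaryocytes, had 1.21 ± 0.369 and 4.99 ± 1.65 FPKM (SD, n = 3 each, limma adjusted p = 0.0217). TUBA4A, an alpha-tubulin, went the other way, with 20.4, 15.7 and 11.9 FPKM before birth and 4.84, 1.70 and 3.24 FPKM after it (log2 difference -2.04, SE 0.32, limma adjusted p = 0.0141). TUBA1B, the most abundant alpha-tubulin here, had 221 ± 40.7 and 623 ± 280 FPKM (SD, n = 3 each) and was not called (limma adjusted p = 0.0605). TUBA1C had 1.60, 0.918 and 1.85 FPKM before birth and 10.9, 87.5 and 6.02 FPKM after it, with Neonatal2 far above the rest (limma adjusted p = 0.0816). Tubulin genes are close copies of each other, so the division of reads among them is uncertain. Each of the 3 calls was lost without some single sample: TUBB without Prenatal2 or Neonatal2 (limma adjusted p = 0.0548 and 0.0501), TUBB1 without any 1 other than Neonatal1, and TUBA4A without Prenatal1, Prenatal2, Neonatal2 or Neonatal3.

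Cytoplasmic dynein with its activator dynactin, the motor that runs against most kinesins, gave 1 call among the 16 of 23 named genes in the table, against 6.87% of all mRNAs, with a median difference of 0.27. ACTR1A, which forms the actin-like filament of dynactin, had 17.1, 14.9 and 14.7 FPKM before birth and 30.4, 25.5 and 29.4 FPKM after it (log2 difference 0.83, SE 0.17, limma adjusted p = 0.0311). That call was lost after median-of-ratios scaling (limma adjusted p = 0.0511), after quantile normalization (0.0792), with a replicate block (0.114) and without any 1 of the 6 samples (limma adjusted p between 0.0540 and 0.120).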
